A study of Mus musculus with 2 samples.

Results

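The genes described here are 37 genes of DNA replication and mitosis, taken as a given list by gene name from the 21853 protein-coding genes of the GENCODE M21 annotation. They comprise 24 genes that act in S phase or at its start and 13 genes that act in mitosis. For each gene the sites of open chromatin were collected from DNase-seq of whole thymus of healthy, untreated newborn mice of strain B6NCrl at postnatal day 0, with males and females pooled. The series held this 1 group with 2 biological replicates and no other condition. The replicates carry the same donor label and different biosamples, so the spread between them may be partly technical. Each replicate had its own deposited list of peaks of 150 bp on mouse build mm10 (GRCm38). Promoter peaks are those centred at most 1000 bp from a coding transcription start site (TSS) of the gene, and a distal peak has that gene's TSS as its nearest coding TSS, at up to 100 kb.

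A dividing cell copies its genome once, in S phase, and separates the copies in mitosis. Licensing proteins load the MCM helicase onto origins before S phase, the fork proteins then copy the DNA from nucleotides made by a small set of enzymes, and cyclins with their kinases time entry into each phase. Transcription of S phase genes is classically tied to E2F factors, and that of mitosis genes to the CHR element bound by MuvB complexes and to CCAAT boxes bound by NF-Y. In the newborn thymus many immature thymocytes are dividing.

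Every promoter on the list was open in newborn thymus. In both replicates a promoter peak was called at all 37 genes, against 62.2% of all protein-coding genes. The 37 genes have from 32 to 133 CpGs within 500 bp of the TSS, and among all genes in that range the share was 89.2%. Strength was taken from the score that the authors deposited for each peak, a whole number from 1 to 150 (what it counts, the sources used here do not state). Scores were turned into a rank, the percentage of peaks in the same list with a lower score. The strongest promoter peak ranked above 90% of peaks in both replicates at 35 of the 37 genes, against 62.3% of all genes with a promoter peak in both replicates and 69.0% of those in the same CpG range. The exceptions were Tyms and Tk1, both of nucleotide synthesis. In whole tissue, the share of cells in which a site is open and its openness in each cell cannot be told apart.

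**Figure D1:**
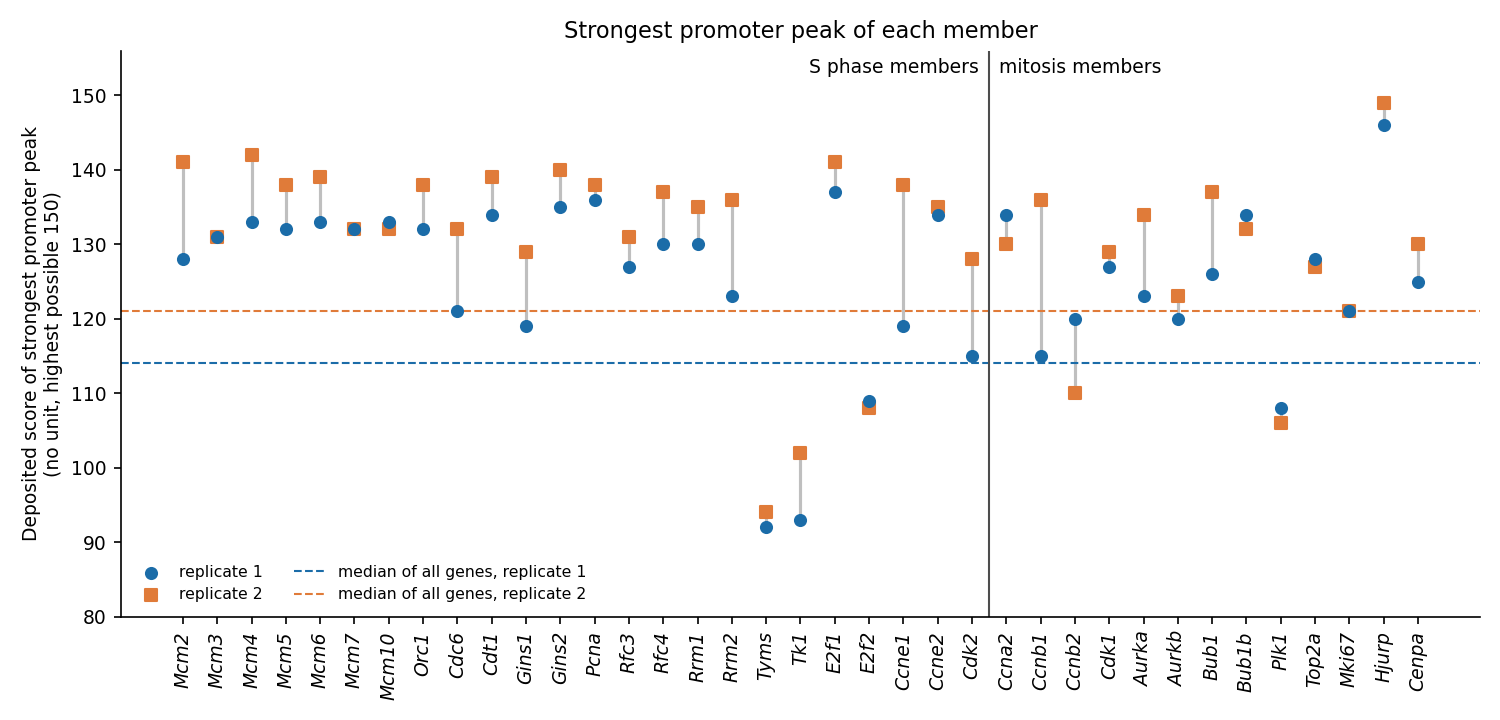
Deposited score of the strongest promoter peak (vertical axis, no unit, starting at 80) for each of the 37 genes, with replicate 1 as circles and replicate 2 as squares. Dashed lines are the medians of all protein-coding genes with a promoter peak in both replicates, 114 and 121. The score of 150 that the axis calls highest possible is the highest found in each list. Tyms and Tk1 lie far under both medians, and Hjurp is the highest in both replicates.

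Marker genes of several cell types were examined for promoter peaks, which over all protein-coding genes were present in both replicates at 62.2%. A promoter peak was present in both replicates at all 12 thymocyte genes listed (Cd3d, Cd3e, Cd3g, Cd4, Cd8a, Cd8b1, Rag1, Rag2, Lck, Ptcra, Dntt and Tcf7). Of 8 markers of thymic epithelium, Aire, Cldn4 and Epcam had one, and Foxn1, Krt5, Krt8, Psmb11 and Trp63 had none in both. Promoter peaks in both replicates were found at 3 of 8 erythroid, 4 of 8 myeloid and 4 of 8 endothelial and mesenchymal markers. Where present in both, the strongest peaks had median ranks of 94.6 and 94.0 for thymocyte and 89.8 and 90.5 for epithelial genes. Median ranks were 84.7 and 86.7 for erythroid, 56.0 and 41.5 for myeloid, and 90.6 and 88.8 for endothelial and mesenchymal genes. Dntt was the lowest thymocyte gene, with scores of 44 and 45. A promoter peak alone does not identify a cell type. Which of these cell types contributed to the peaks of the 37 genes was not tested.

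The genes that license origins and form the replicative helicase had the highest ranks of the S phase roles. The median rank of their strongest promoter peaks was 98.8 in replicate 1 and 98.7 in replicate 2, over 12 genes. Mcm2 to Mcm7 encode the ring-shaped helicase. Scores in replicates 1 and 2 were 128 and 141 at Mcm2, 131 in both at Mcm3, and 133 and 142 at Mcm4. They were 132 and 138 at Mcm5, 133 and 139 at Mcm6, and 132 in both at Mcm7, so the 6 subunits lay within 5 units of each other in replicate 1 and within 11 in replicate 2. Mcm10, a factor for helicase activation, had 133 and 132. Orc1, the largest subunit of the origin recognition complex, had 132 and 138.

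Cdc6 and Cdt1 encode the factors that load the helicase with the origin recognition complex. Cdt1 scored 134 and 139, above Cdc6 at 121 and 132 in both replicates. Gins1 and Gins2 encode subunits of the GINS complex, which joins the helicase at the fork. Gins2 scored 135 and 140, and Gins1 scored 119 and 129, the lowest of the 12 in both replicates. Gins1 was also the only one of the 37 genes whose strongest peaks did not overlap between replicates. Its peak 3 bp upstream of the TSS scored 113 and 129, and a second peak, centred 237 bp downstream in replicate 1 and 197 bp in replicate 2, scored 119 and 118.

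The Mcm6 promoter is shown because an open core of 150 bp held both E2F letters and CCAAT boxes. The stretch is the strongest peak of replicate 1, chr1:128359676-128359825 (mm10), read on the minus strand, which is the strand of the gene, and it lies 5′ of the annotated untranslated region. Capitals mark matches to E2F letters and CCAAT boxes on either strand, so that a box on the opposite strand reads ATTGG.
Mcm6: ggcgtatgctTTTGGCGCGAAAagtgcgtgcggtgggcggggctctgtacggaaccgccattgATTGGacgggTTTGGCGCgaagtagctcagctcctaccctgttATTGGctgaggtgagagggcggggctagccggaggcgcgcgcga

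At the replication fork, Pcna encodes the sliding clamp, and Rfc3 and Rfc4 encode subunits of the loader that places it on DNA. Pcna scored 136 and 138, Rfc4 scored 130 and 137, and Rfc3 scored 127 and 131. All 3 were above the median of all genes with a promoter peak, which was 114 in replicate 1 and 121 in replicate 2. Pcna had a second promoter peak of nearly the same strength, centred 563 bp downstream of the TSS in replicate 1 (score 136) and 583 bp downstream in replicate 2 (score 137).

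Nucleotide supply was the least uniform role, with a median rank of 91.5 in replicate 1 and 93.7 in replicate 2 over 4 genes. Rrm1 and Rrm2 encode the large and small subunits of ribonucleotide reductase. Their promoters scored 130 and 135 at Rrm1 and 123 and 136 at Rrm2. Tyms, thymidylate synthase, scored 92 and 94, ranks of 85.8 and 86.7, the lowest of the 37 genes in both replicates. Tk1, the thymidine kinase of the salvage pathway, scored 93 and 102, ranks of 86.3 and 89.4. Thus the pair of genes that make thymidine nucleotides stood under the median of all genes with a promoter peak, and the pair for ribonucleotide reductase stood above it, in both replicates. The strongest peak of Tk1 was centred 221 bp downstream of its TSS in both replicates, and that of Tyms was centred 14 bp upstream. The TSS of Afmid, on the opposite strand, lies 118 bp downstream of that of Tk1 and is nearer to the centre of the Tk1 peak. To which of these genes that peak belongs cannot be told from its position.

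Control of the step from G1 to S phase is represented by E2f1 and E2f2, which encode transcription factors, by Ccne1 and Ccne2, which encode E cyclins, and by Cdk2, their kinase. E2f1 had the highest rank of all 24 S phase genes in replicate 1, with scores of 137 and 141. E2f2 scored 109 and 108, under the median of all genes in both replicates. Ccne2 had 134 and 135. Ccne1 had 119 and 138, the widest gap between replicates among the S phase genes, at 19 units. Cdk2 had 115 and 128. The E2f1 stretch is shown because the open core held CCAAT boxes and no E2F letters, which followed just past its edge. It is chr2:154569916-154570065 (mm10), minus strand, upstream of the TSS, and capitals mark CCAAT boxes. GC boxes, at 4 places in it, are not marked.
E2f1: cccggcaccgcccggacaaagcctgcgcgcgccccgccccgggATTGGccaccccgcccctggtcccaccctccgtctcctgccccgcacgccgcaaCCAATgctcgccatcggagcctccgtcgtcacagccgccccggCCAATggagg

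Among the mitosis genes, Ccna2 encodes cyclin A2, which acts from S phase into mitosis and was counted here with mitosis, Ccnb1 and Ccnb2 encode B cyclins, and Cdk1 encodes the kinase they activate. Ccna2 scored 134 and 130, and Cdk1 scored 127 and 129. Ccnb1 scored 115 and 136, a gap of 21 units and the widest of the 37. Ccnb2 scored 120 and 110, the largest fall from replicate 1 to replicate 2 among the 37 genes. The B cyclin promoters therefore had opposite orders in the replicates, with Ccnb2 above Ccnb1 in replicate 1 and under it in replicate 2.

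The Ccnb2 and Cdk1 promoters are shown because neighbouring CCAAT boxes in their open cores had a similar spacing, of 33 bp in Ccnb2 and 32 bp in Cdk1. The stretches are the parts of the strongest peaks of replicate 1 that lie outside annotated untranslated regions, chr9:70421548-70421685 for Ccnb2 and chr10:69352939-69353085 for Cdk1 (mm10), both on the minus strand. Capitals mark CCAAT boxes in both, and in Cdk1 also an E2F match and the CHR letters between the boxes.
Ccnb2: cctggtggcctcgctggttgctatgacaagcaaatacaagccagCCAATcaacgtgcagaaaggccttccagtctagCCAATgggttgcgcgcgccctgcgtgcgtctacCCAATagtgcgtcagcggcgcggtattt
Cdk1: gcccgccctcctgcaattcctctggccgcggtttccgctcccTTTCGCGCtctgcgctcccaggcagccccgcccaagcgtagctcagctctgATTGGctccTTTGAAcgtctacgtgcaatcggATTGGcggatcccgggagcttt

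The mitotic kinases and checkpoint genes comprise Aurka, a kinase of the spindle poles, Aurkb, the kinase of the chromosomal passenger complex, Plk1, a kinase with several mitotic roles, and Bub1 and Bub1b of the spindle checkpoint. Their median rank was 96.6 in replicate 1 and 97.2 in replicate 2. Bub1b scored 134 and 132, and Bub1 scored 126 and 137. Aurka scored 123 and 134, and Aurkb scored 120 and 123. Plk1 was the lowest of the 13 mitosis genes in both replicates, at 108 and 106.

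Of the genes for chromosome structure and the centromere, Hjurp stood apart. Hjurp encodes the chaperone that deposits the centromere histone CENP-A, and its strongest peak scored 146 and 149, the highest of the 37 genes in both replicates, centred 2 bp from a TSS. Cenpa, the gene for that histone, scored 125 and 130. Top2a, the topoisomerase that untangles sister chromatids, scored 128 and 127, and Mki67, the gene of the proliferation marker Ki-67, scored 121 in both. The Top2a core is shown because it was the promoter richest in CCAAT boxes of the 37, with 6 in the 300 bp at its TSS. It lies at chr11:99024296-99024445 (mm10), minus strand, upstream of the TSS, with CCAAT boxes and the CHR letters in capitals.
Top2a: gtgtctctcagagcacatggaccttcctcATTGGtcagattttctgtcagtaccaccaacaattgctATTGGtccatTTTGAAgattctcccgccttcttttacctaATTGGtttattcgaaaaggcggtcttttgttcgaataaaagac

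The 24 S phase genes ranked slightly higher than the 13 mitosis genes. Their median rank was 98.5 against 97.1 in replicate 1 and 98.1 against 96.6 in replicate 2, a difference of 1.40 ± 0.0955 percentage points (SD, n = 2). Over all genes with a promoter peak in both replicates the median rank was 94.2 and 94.3. In scores, the medians were 130.5 and 135.5 for S phase, 125 and 130 for mitosis, and 114 and 121 for all genes. The groups overlapped widely, with S phase ranks from 85.8 to 99.6 and mitosis ranks from 92.4 to 99.99 in replicate 1. With 1 group of samples and with genes that are not replicates, no test was made.

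Among other genes of the same pathways, S phase genes did not rank higher in replicate 1. Of 50 further S phase genes and 54 further mitosis genes, each had a promoter peak in both lists. Over all protein-coding genes 62.2% had one, and 89.2% did among those with 32 to 133 CpGs within 500 bp of the TSS. Median ranks were 97.8 for the S phase list and 97.9 for the mitosis list in replicate 1, and 97.5 and 96.9 in replicate 2. The lowest ranks of the S phase list were at Pola1 (scores 87 and 96) and Prim1 (99 and 95), both of the primase complex, followed by Pole2 and Fen1. Its highest were at Rpa1 (143 and 146), a subunit of the single-strand binding protein, then E2f3, Cdc25a and Pold2. In the mitosis list, Melk (107 and 102), Cdc25b, Ckap2 and Kif4 ranked lowest, and Birc5 (138 and 141), which encodes survivin, Cks2 and Ube2c ranked highest.

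Transcription factors and cofactors that act on these promoters were open as well. Promoter peaks in both replicates were found at all 18 genes of that list, with median ranks of 97.3 and 96.9. The share was 62.2% over all protein-coding genes and 89.2% over those with 32 to 133 CpGs within 500 bp of the TSS. The 18 genes had a median of 88.5 CpGs in that range of sequence. Rb1, the retinoblastoma gene, was lowest (90 and 109), before E2f6, Foxm1 (109 and 106) and Lin54. Nfya, a subunit of the CCAAT-binding NF-Y, was highest (136 and 146), then Rbbp4, Lin52 and Mybl2 (131 and 138).

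Scores tended to be higher in replicate 2. The strongest promoter peak scored higher there at 27 of the 37 genes, lower at 7 and equal at 3, against 65.5% higher over all genes with a promoter peak in both. By phase, 20 of 24 S phase genes and 7 of 13 mitosis genes were higher in replicate 2. By rank within each list, 14 of the 37 were higher in replicate 2, and the median absolute difference was 1.12 percentage points.

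The strongest peaks of the replicates overlapped by at least 1 bp at 36 of 37 genes (91.4% over all genes with a promoter peak in both) and had the same position at 17. At Gins2 the overlap was 10 bp. Peak starts fall on a grid of 20 bp, so smaller shifts cannot be seen. The strongest peak was centred within 100 bp of a TSS in both replicates at 26 of 37 genes, against 60.0%, and upstream of it in both at 28, against 64.4%. Farthest upstream were Mki67, centred at 210 and 190 bp, E2f2, at 183 bp in both, and Top2a, at 182 and 142 bp.

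Sequence at the start sites differed between the S phase and the mitosis genes. In the 300 bp from 250 before to 50 after 1 TSS per gene, E2F letters (TTTCCCGC, TTTGGCGC, TTTCGCGC or TTTGCCGC, on either strand) were present at 12 of 24 S phase genes and at 1 of 13 mitosis genes, against 2.89% of all protein-coding genes. The CHR letters TTTGAA, on either strand, were present at 1 of 24 S phase genes and at 9 of 13 mitosis genes, against 15.6%. The letters CCAAT, on either strand, were common to both, at 16 of 24 and 12 of 13, against 38.4%. Among genes with a promoter peak in both replicates, the shares were 4.03% for E2F letters, 11.6% for CHR letters and 37.3% for CCAAT. No stretch of letters counts under more than 1 of these 3 motifs. A match is a description of the letters and not a measured binding site.

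**Figure D2:**
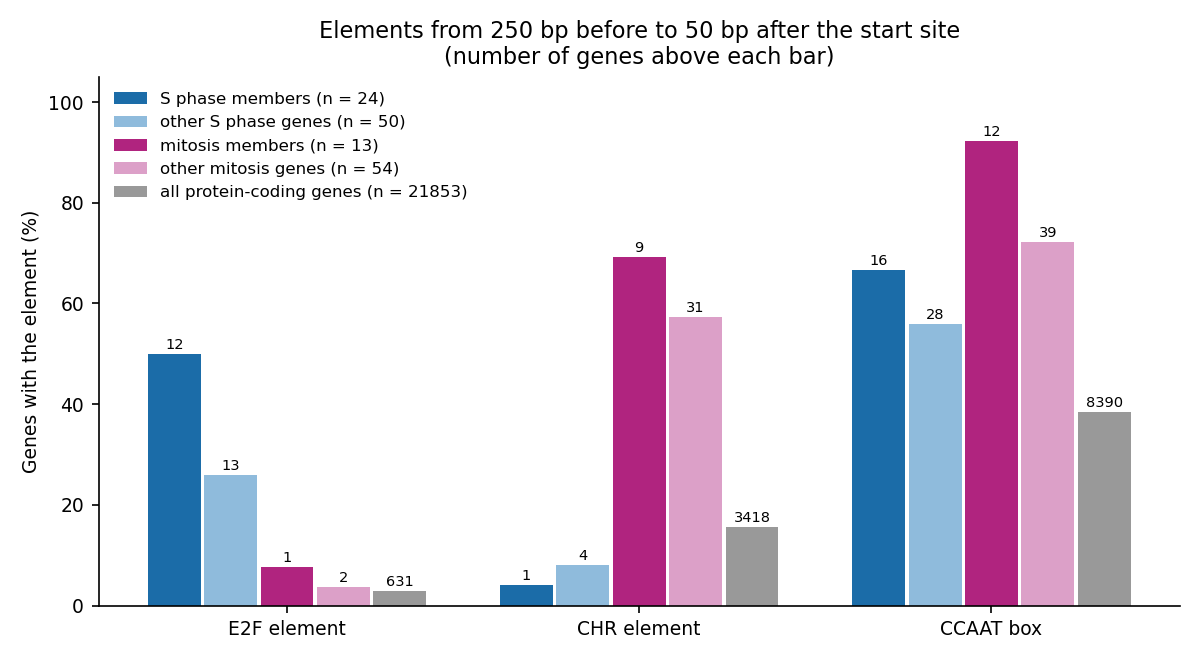
Percentage of genes (vertical axis) with E2F letters, CHR letters and CCAAT boxes in the 300 bp at the TSS, for S phase genes, mitosis genes, the further genes of both pathways and all protein-coding genes, with the number of genes above each bar. E2F letters are at 12 of 24 S phase and 1 of 13 mitosis genes, and CHR letters are at 1 of 24 and 9 of 13.

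The 12 S phase genes with E2F letters were Mcm3, Mcm4, Mcm5, Mcm6, Orc1, Cdc6, Cdt1, Gins1, Rfc3, E2f1, E2f2 and Cdk2. By role, they were 8 of 12 licensing and helicase genes, 1 of 3 fork genes, 0 of 4 nucleotide supply genes and 3 of 5 G1/S control genes. The 21 matches lay at 18 separate places, since a palindrome at Gins1 and near palindromes at Mcm5 and Mcm6 match on both strands. Of these matches, 11 lay within 50 bp of the TSS, or 52.4%, where 38.2% did over all genes with a promoter peak in both. The sites below, each of 30 bases on the strand of the gene with the E2F match in capitals, are shown because they belong to the 5 S phase genes whose matches lie closest to the TSS. The position is that of the centre of the match relative to the TSS.
Mcm5 (chr8:75109550-75109579, plus strand, 4.5 bp upstream): ggaggctggttTTTCCCGCgaaagtcggct
Gins1 (chr2:150909578-150909607, plus strand, 1.5 bp upstream): gagcctatttgGCGCCAAAgcgaggagctg
E2f1 (chr2:154569870-154569899, minus strand, 7.5 bp downstream): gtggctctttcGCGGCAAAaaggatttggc
Mcm3 (chr1:20820275-20820304, minus strand, 22.5 bp downstream): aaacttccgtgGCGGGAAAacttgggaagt
Orc1 (chr4:108579416-108579445, plus strand, 23.5 bp upstream): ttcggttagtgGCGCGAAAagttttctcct

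The E2F letters lay outside the 150 bp open core more often than inside it. Of the 21 matches in S phase genes, 6 lay within the strongest peak of replicate 1 and 8 within that of replicate 2, and 20 and 21 (95.2% and 100%) lay within the wider hotspot, the deposited region of enriched cutting around the peaks, where 92.6% and 93.4% did over all genes with a promoter peak in both. Over all genes with a promoter peak in both replicates, 34.9% and 35.1% of E2F matches lay within the strongest peak, near the 28.6% and 38.1% of the S phase genes. The median match was 56 bp (replicate 1) and 36 bp (replicate 2) downstream of the peak centre in S phase genes, and 42 bp and 50 bp upstream of it in all genes. Within the 150 bp of the strongest peak in both replicates, E2F letters were at Mcm4, Mcm6 and Rfc3 and, of the mitosis genes, at Cdk1, against 1.88% of all genes with a promoter peak in both.

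The 9 mitosis genes with CHR letters were Ccnb2, Cdk1, Aurka, Aurkb, Bub1b, Plk1, Top2a, Mki67 and Hjurp, and the S phase gene was Mcm2. Ccna2, Ccnb1, Bub1 and Cenpa had none in this window. Of 13 matches in the mitosis genes, 11 were on the strand of the gene, where 49.6% were over all genes with a promoter peak in both, and 7 lay within 50 bp of the TSS, or 53.8%, where 22.4% did. A site of each of the 6 genes with a match in that range is shown, 30 bases on the strand of the gene with the CHR letters in capitals. At Top2a they are on the opposite strand and read TTCAAA.
Ccnb2 (chr9:70421533-70421562, minus strand, 0.5 bp upstream): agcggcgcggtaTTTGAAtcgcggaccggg
Cdk1 (chr10:69352910-69352939, minus strand, 13.5 bp downstream): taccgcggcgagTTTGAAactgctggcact
Top2a (chr11:99024195-99024224, minus strand, 20.5 bp upstream): gctagataaaggTTCAAAtgaaactaggga
Plk1 (chr7:122159453-122159482, plus strand, 28.5 bp downstream): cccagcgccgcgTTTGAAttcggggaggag
Aurka (chr2:172370521-172370550, minus strand, 29.5 bp upstream): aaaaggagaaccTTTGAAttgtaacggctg
Bub1b (chr2:118598239-118598268, plus strand, 42.5 bp downstream): agagacgttaaaTTTGAAacttggcggccc

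CHR letters of the mitosis genes lay downstream of the peak centre, by a median of 63 bp in replicate 1 and 57 bp in replicate 2. In all genes with a promoter peak in both replicates the median was 118 bp and 128 bp upstream. Of the 13 matches, 4 and 6 lay within the strongest peak, or 30.8% and 46.2%, where 19.1% and 17.8% did over all genes. All 13 lay within the hotspot in each replicate, where 75.0% and 75.9% did over all genes. Within the 150 bp of the strongest peak in both replicates, CHR letters were at Ccnb2, Cdk1, Plk1 and Top2a and at no S phase gene, against 3.16%. Cdk1 was the only one of the 37 genes with E2F and CHR letters in the 300 bp at the TSS. Mcm7, Pcna, Rfc4, Tyms, Tk1, Ccne1 and Ccna2 had no E2F, CHR or CCAAT letters there. The strongest peaks of Mcm7 and Tk1 lie outside that window. CCAAT letters were within the strongest peak of both replicates at Mcm7, Pcna and Ccna2.

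CCAAT boxes lay inside the open core at most of these genes. In the 150 bp of the strongest peak in both replicates they were present at 15 of 24 S phase and 12 of 13 mitosis genes, against 25.5%, and the mitosis gene without them was Hjurp. Of the 29 boxes at the TSSs of mitosis genes, 22 and 23 lay within the strongest peak of replicates 1 and 2, and of the 27 at S phase genes 18 and 20 did. These are 75.9% and 79.3% for mitosis and 66.7% and 74.1% for S phase, against 52.0% and 51.2% over all genes with a promoter peak in both. Boxes lay on both sides of the peak centre. Within the strongest peak, the median box was 25 bp and 28 bp from the centre in S phase genes and 28 bp and 32 bp in mitosis genes.

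**Figure D3:**
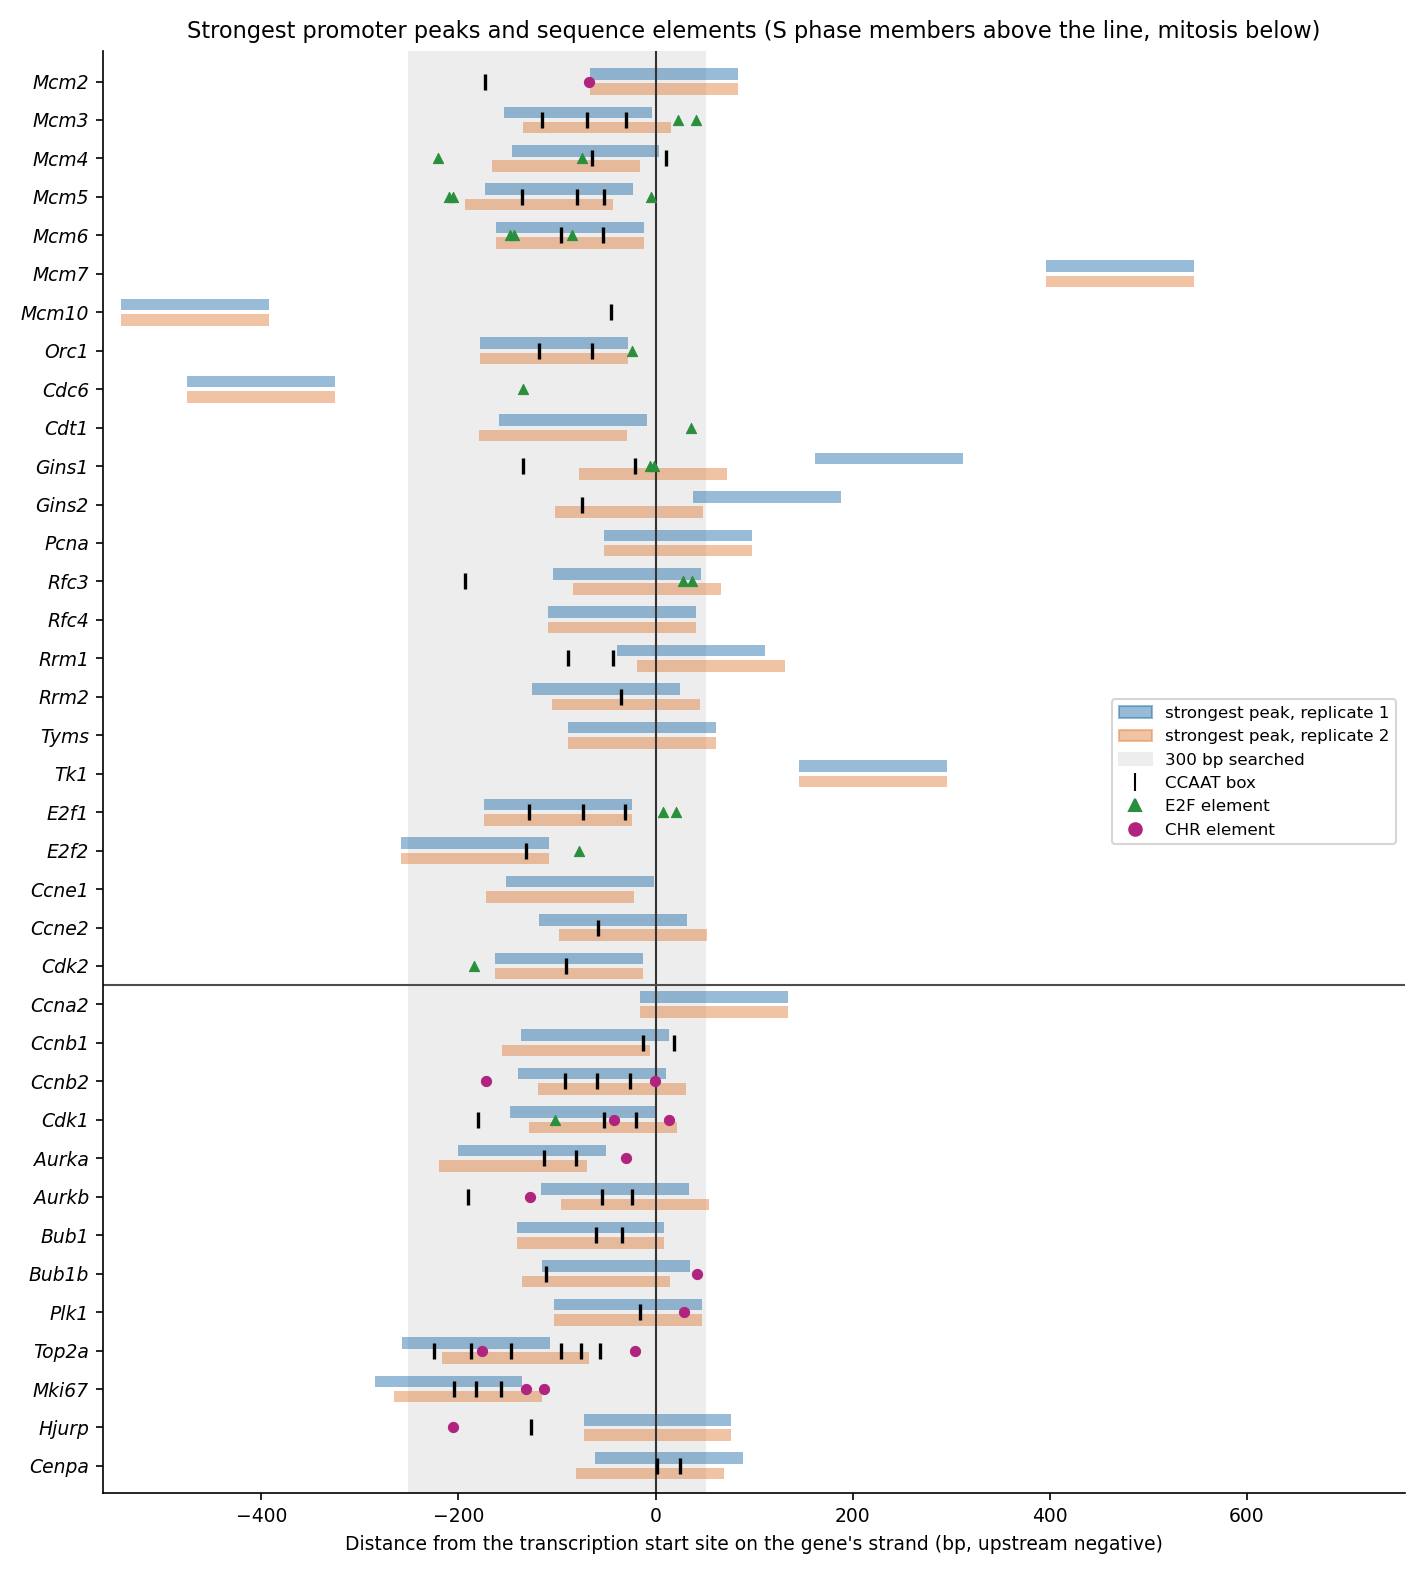
Strongest promoter peak of each gene in replicate 1 (upper bar) and replicate 2 (lower bar) against distance from 1 TSS per gene (horizontal axis, bp), with CCAAT boxes (vertical ticks), E2F letters (triangles) and CHR letters (circles) found in the shaded 300 bp. CCAAT boxes fall mostly inside the bars, and E2F and CHR letters often fall to their right, nearer the TSS. Both strongest peaks of Mcm7, Mcm10, Cdc6 and Tk1 lie outside the searched window, and those of the first 3 lie at another annotated TSS.

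Neighbouring CCAAT boxes were closer together in mitosis than in S phase genes. The median distance between neighbouring boxes was 32 bp over 17 pairs in mitosis genes, 46 bp over 11 pairs in S phase genes and 43 bp over 2746 pairs in all genes with a promoter peak in both. A spacing of 30 to 35 bp, a range chosen after the positions were seen, was found for 6 of 17 pairs in mitosis genes, 0 of 11 in S phase genes and 13.3% in all genes. The 6 pairs were 2 in Ccnb2, at 33 bp each, and 1 each in Ccnb1, Cdk1 and Aurka, at 32 bp, and in Aurkb, at 30 bp.

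In the wider lists the elements differed in the same direction. E2F letters were in the 300 bp at the TSS of 13 of 50 further S phase genes and 2 of 54 further mitosis genes, CHR letters at 4 of 50 and 31 of 54, and CCAAT boxes at 28 of 50 and 39 of 54. Of 39 CHR matches in the further mitosis genes 33 lay within 50 bp of the TSS, which is 84.6%, and 24 were on the strand of the gene, which is 61.5%. Of the other letters searched in the strongest peak, the GC box GGGCGG was at 15 of 24 S phase and 5 of 13 mitosis genes (50.4% over all genes with a promoter peak in both) and the ETS letters CCGGAAGT at 3 and 2 (6.08%). The NRF1 consensus (1.35%) and the TATA letters TATAAA (1.50%) were in none of the 37 strongest peaks of both replicates.

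Promoters shared with another gene were about as frequent as elsewhere. At 6 of 37 genes (16.2%) the strongest peak also lay within 1000 bp of the TSS of another protein-coding gene, in each case on the opposite strand, against 17.8% of all genes with a promoter peak in both. The pairs were Mcm4 with Prkdc, the DNA-dependent protein kinase of double-strand break repair, Mcm7 with Ap4m1, Orc1 with the splicing factor gene Prpf38a, Tk1 with Afmid, Cdk2 with the melanosome gene Pmel, and Aurka with Cstf1, of mRNA 3′ end formation. To which gene of a pair the open site belongs cannot be told from its position.

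The hotspots around these promoters were all at the ceiling of their deposited value. The −log10 q-value was at its cap of 100 at 37 of 37 genes in both replicates, against 88.4% of all genes with a promoter peak in both, so it gives no order among them. Median hotspot width was 1250.5 bp and 1283.5 bp for S phase genes and 952 bp and 1405 bp for mitosis genes in replicates 1 and 2, so the order of the groups was not the same in both. Hotspots of Hjurp, at 2144 and 2083 bp, and Mcm6, at 1940 and 2070 bp, were among the widest in both, and that of E2f2 was 453 bp in replicate 1 and 1967 bp in replicate 2.

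Away from the promoters, the number of distal peaks varied widely among the 37 genes. At least 1 distal peak of replicate 1 that overlapped a peak of replicate 2, called a shared distal peak below, was found at 29 of 37 genes (78.4%), against 65.0% of all protein-coding genes and 76.0% of those in the same CpG range. There were 124 of them, 77 at S phase and 47 at mitosis genes, of which 66 lay in introns, 49 between genes and 9 in exons. Peaks of the same list that overlap each other, as some do at Aurkb, were each counted. The 6 genes with most, E2f2, Aurkb, Ccnb2, Rrm2, Ccne1 and Gins2, held 66 of the 124, or 53.2%. Counts were uneven over all protein-coding genes as well, with none at 7655 of 21853 genes and a highest count of 85. The share held by the top genes was not computed there, so 53.2% has no background. The mean per gene was 3.21 for S phase, 3.62 for mitosis and 3.15 for all protein-coding genes, and the medians were 1.5, 3 and 1. For all genes in the same CpG range the mean was 3.87, above both groups, and the median was 2. Within 50 kb the order of the 2 groups turned, at 3.08 for S phase and 2.92 for mitosis. Mcm4, Mcm7, Gins1, Pcna, Tyms, Cdk2, Ccna2 and Aurka had none.

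**Figure D4:**
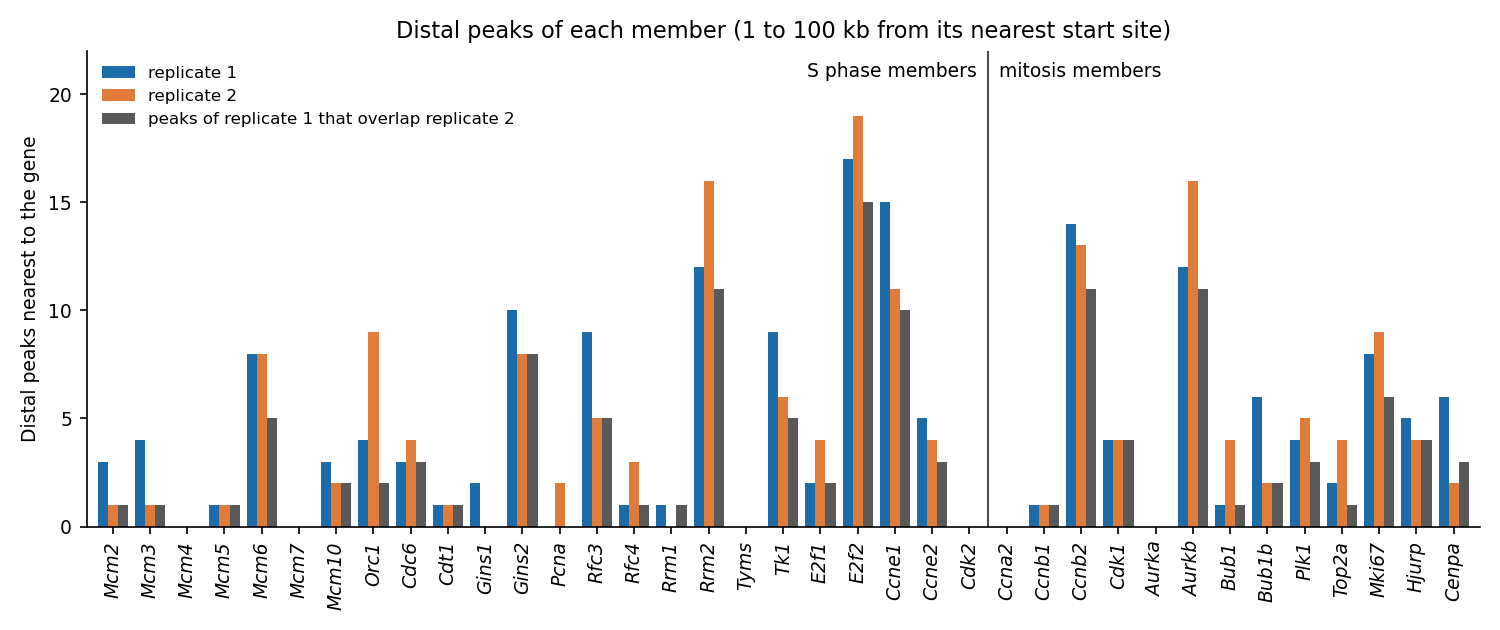
Number of distal peaks (vertical axis) assigned to each of the 37 genes in replicate 1, in replicate 2, and in replicate 1 with an overlapping peak in replicate 2. E2f2 has the most shared distal peaks, at 15, and many helicase genes have none or 1.

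E2f2 had 17 and 19 distal peaks in replicates 1 and 2, and 15 of those in replicate 1 were shared. Of these, 12 lay in its own introns and 3 lay upstream. The strongest of its intronic sites by replicate 2, chr4:136180556-136180705, was 8.24 kb downstream of the TSS and scored 107 and 129, the second of these above the E2f2 promoter peak in the same replicate. Another intronic site, chr4:136177776-136177925, scored 112 and 117, above the promoter peak (109 and 108) in both replicates. E2f2 thus combined a promoter score in the lower range of the 37 genes with the most distal sites.

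Ccne1 had 15 and 11 distal peaks with 10 shared. An intergenic site at chr7:38085016-38085165, 21.8 kb downstream of its nearest TSS, scored 131 and 139, above the Ccne1 promoter peak (119 and 138) in each replicate. Rrm2 had 12 and 16 distal peaks with 11 shared. Gins2 had 10 and 8 with 8 shared, all within the annotated locus Gm20388, which overlaps Gse1. At Tk1, 5 shared sites lay in its neighbour Afmid, and the strongest, in an Afmid exon at chr11:117832136-117832285, scored 122 and 128, above the Tk1 promoter peak at 93 and 102. The Afmid TSS next to that of Tk1 is only 118 bp farther from these 5 sites, so their assignment to Tk1 rests on that margin.

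Among mitosis genes, Aurkb had 12 and 16 distal peaks. All 11 shared ones formed a cluster upstream, from 3.78 to 9.58 kb before the TSS. Of these, 4 ranked above 90% of peaks in both replicates when the highest-scoring overlapping peak of replicate 2 was used. At chr11:69041796-69041945, which is among the 4, that overlapping peak was a neighbour with a score of 110. The replicate 2 peak at exactly that position scored 98, a rank of 88.1, and so lay under 90%. Ccnb2 had 14 and 13 with 11 shared, of which 9 lay in the neighbouring myosin gene Myo1e. Mki67 had 8 and 9 with 6 shared, and its site at chr7:135735836-135735985, 19.6 kb upstream and intergenic, scored 133 and 132, above its promoter peak at 121 in both. Assignment to the nearest TSS does not show which gene a distal site acts on.

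Genes of the list have short stretches of sequence to themselves. The median territory, the sequence nearer to a gene's TSSs than to those of any other gene within 100 kb, was 28.7 kb for S phase, 28.8 kb for mitosis and 46.4 kb for all protein-coding genes. Per 100 kb of territory, shared distal peaks numbered 8.78 for S phase, 7.53 for mitosis and 4.30 for all protein-coding genes, and 5.06 for those in the same CpG range. The further genes of the same pathways did not share these higher values, at 5.08 for the S phase list and 3.72 for the mitosis list. Among the 37 genes the values were highest at Aurkb (50.4), E2f2 (47.7) and Tk1 (43.0), and 8 genes had no shared distal peak. Overlapping peaks of the same list, as at Aurkb, were counted separately in these values.

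Nearest to the limit of the rule for promoter peaks, on the inside, were peaks of Rrm1 at 996 bp (score 26), of Ccne1 at 977 bp (79 and 77), and at 976 bp peaks of Aurka (38) and Mcm6 (35) in replicate 1 and of Cdt1 (49) and Rrm1 (20) in replicate 2. The nearest outside were peaks of Mcm6 at 1016 bp (37), Tk1 at 1019 bp (59), Bub1b at 1040 bp (27) and Rfc4 at 1054 bp (20). None of these was the strongest promoter peak of its gene. In all, the replicates had 154812 and 139702 peaks and 135932 and 121064 hotspots, with median peak scores of 46 and 41. The sources used here give no read totals, and the depth behind these values is therefore unknown.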

How the data were processed

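DNase-seq of newborn thymus was measured in 2 replicates of 1 group. Per the labels, positions are on mm10. Each peak carries a score, deposited by the authors, that runs from 1 to 150, and each hotspot carries a −log10 q-value, deposited by the authors, that is capped at 100. The cap and the score's upper limit compress differences among the strongest sites. Callers, thresholds, aligner and read totals: not given in the sources used here. Depth is thus unknown, and no counting interval could be given.

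Peaks were assigned to 54361 protein-coding TSSs of GENCODE M21 by their midpoints, to promoters within 1000 bp and otherwise to the nearest TSS within 100 kb. Genes with several TSSs have more sequence searched. An overlap of at least 1 bp counted as shared. Score ranks were computed within each list. Sequence was read from GRCm38, elements were searched on both strands, and the 300 bp window used 1 TSS per gene, that of the principal or else the longest transcript. Peak stretches are printed without annotated untranslated regions.

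The 37 genes, the pathway and marker lists and the motifs were chosen with earlier results of these data known. All 37 genes are named. Of the pathway lists, the 4 highest and 4 lowest by mean rank are named, except 1 gene that is not reported here, and of the marker lists any gene. Genes that share a promoter peak are named as well. No test was made, because 1 group leaves nothing to compare and genes are not replicates. Alternatives were other promoter windows (500 and 2500 bp), equal numbers of peaks, the stronger 50% of peaks, 1 TSS per gene, a reciprocal overlap of 50%, a limit of 50 kb, hotspots for peaks, Ccna2 counted with S phase, other motif windows and letters, and each replicate alone. Assignment and motif steps were tested on simulated data with planted peaks and sites. Python 3.11.15, numpy 2.4.6, pandas 2.3.3, pysam 0.24.0 and matplotlib 3.10.9 were used.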

Additional observations from a re-analysis of the deposited data

How the results depend on the processing

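All 37 genes kept a promoter peak in both replicates under every alternative except a reciprocal overlap of 50%, which left 36. The S phase genes ranked higher than the mitosis genes by 1.58 percentage points with Ccna2 counted as S phase. In replicates 1 and 2 alone the difference was 1.33 and 1.47. Changing the promoter window, reducing the peak lists or using 1 TSS per gene left it at exactly the main value of 1.40. Those settings therefore could not test the order of the groups by rank. The rank difference was not computed for a reciprocal overlap, a shorter distal limit or hotspots. Mean shared distal peaks per gene, for S phase and mitosis, were 4.04 and 4.08 with a promoter window of 500 bp, 2.71 and 3.23 with 2500 bp, and 2.21 and 2.31 with the stronger 50% of peaks. They were 3.96 and 5.08 with 1 TSS per gene and 3.04 and 3.31 with reciprocal overlap. For mitosis the mean was 3.54 with equal numbers of peaks, 3.92 without Ccna2 and 2.92 within 50 kb, where S phase stood higher at 3.08, so the order of the groups turned. All distal peaks of each replicate alone, with no sharing required, gave 4.38 to 4.58 for S phase and 4.85 to 4.92 for mitosis. The cause was not tested.

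Counts of genes with an element in the strongest peak rested on the window. E2F letters were at 15 S phase genes in 500 bp centred on the peak, 12 in the 300 bp at the TSS and 5 with the first base left out, where mitosis genes had 2. CHR letters were at 10 mitosis genes in 500 bp and 9 at the TSS. At S phase genes they were at 1 in 500 bp, at 1 at the TSS and at 1 with looser letters. Over all genes with a promoter peak in both, 500 bp windows held E2F letters in 5.98% and CHR letters in 14.6%. With looser letters the strongest peaks of these genes held E2F letters in 9.23% and CHR letters in 3.83%. For E2F letters the first base left out thus raised the background as well, from 1.88%. CCAAT counts stayed within 1.5 times their value. No paired analysis was possible because the series has a single group. Without read depth, a missing peak cannot be told from one under the caller's threshold, and 2 replicates limit every SD.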
